A study of Triticum aestivum with 36 samples.

Results

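The 3 probe sets described here are those whose function, in the study's list of differentially expressed probe sets, contains GATA transcription factor, heat stress transcription factor or chromodomain-helicase. They are GATA transcription factor 17 (GATA17, Ta.7430.1.S1_at), heat stress transcription factor A-9 (HSFA9, Ta.5129.2.A1_a_at) and chromodomain-helicase-DNA-binding protein 4 (CHD4, Ta.6984.1.A1_at), 3 of 61290 probe sets on the array and 3 of the 236 in the study's list. The study hybridized total RNA of developing bread wheat seeds to 36 Affymetrix wheat arrays. The good chapatti-making varieties were C306 and Lok1 and the poor ones were Sonalika and WH291, with 3 biological replicates of each at 3 stages, which makes 12 groups of 3 arrays. Stages are given in days after anthesis (DAA), the opening of the flower, and were 7, 14 and 28 DAA. Field-grown plants of each variety supplied the tagged main spikes, and whole seeds were extracted, so that endosperm, embryo and seed coats were measured together and fewer cells of a type cannot be told apart from less RNA per cell. The study compared the quality classes to find genes related to chapatti quality, and the question addressed here is whether each of the 3 probe sets differed by variety, by quality class or by stage.

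GATA factors are zinc finger proteins that bind DNA at a GATA core, and in Arabidopsis members of the family act in light and nitrogen responses and greening. HSFA9 is known from sunflower and Arabidopsis as a heat stress factor of maturing seeds that activates genes of small heat shock proteins during embryo maturation. CHD4 is known from animals as the ATPase of a complex that joins chromatin remodelling with histone deacetylation, and the related plant protein PICKLE of Arabidopsis represses embryo genes in seedlings. The names of the 3 wheat probe sets were given in the study by similarity to proteins of the diploid relatives Triticum urartu (GATA17 and CHD4) and Aegilops tauschii (HSFA9), so their roles in wheat are not established by the names. Bread wheat carries near-identical copies of most genes, and which copies each probe set detects is not given in the sources used here.

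All values are log2 signals that the authors centred on the median of each probe set over the 36 arrays. A value of 0 is therefore the median of that probe set, and no level can be set against that of another probe set. The study chose its list in these same arrays by tests of quality, seed development and their interaction. It then required a large difference between good and poor varieties, so that difference is given below as a description only. Since the choice included stage, the stage tests below are not independent of it. The study marked all 3 probe sets as involved in quality and none in the interaction. It marked HSFA9 and CHD4, but not GATA17, as involved in seed development. Differences between the 2 varieties of a class, and between stages of a variety, were tested with limma in a model of the 12 groups, with Benjamini-Hochberg adjustment over 60130 probe sets. These had all arrays of at least 1 class and stage at or above the 20th percentile of centred values in their array, a filter that does not select on signal level, since centring removes it. All 3 of the 3 probe sets passed that filter.

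The arrays labelled Lok1 7 DAA and WH291 14 DAA departed from the pattern of their varieties. Probe sets were taken that lay more than 2 log2 units apart between all arrays of a pair of varieties at both other stages, in the same direction. In 10 comparisons that did not rest on these 6 arrays, 87.7 to 98.5% of such probe sets had all 3 arrays on the side of their own variety. Of 101 probe sets that separated C306 from Lok1 at 14 and 28 DAA, the 3 arrays labelled Lok1 7 DAA lay together on the Lok1 side at 43 and on the C306 side at 50. Of 112 that separated Sonalika from Lok1, they lay on the Lok1 side at 35 and on the Sonalika side at 72. Of 127 probe sets that separated WH291 from C306, the arrays labelled WH291 14 DAA lay on the WH291 side at 50 and on the C306 side at 67. Of 74 that separated WH291 from Sonalika, they lay on the WH291 side at 33 and on the Sonalika side at 34. Of 26 that separated WH291 from Lok1, they lay on the WH291 side at 0 and on the Lok1 side at 24. The choice of those 26 itself used the arrays labelled Lok1 7 DAA. At 14 DAA the arrays labelled WH291 lay more than 2 log2 units apart from Lok1 at 108 probe sets, from C306 at 142 and from Sonalika at 274. Results below that rest on these 6 arrays are named as such. A difference between varieties at 7 DAA in the good class or at 14 DAA in the poor class has no value without them. Among markers of the seed, 16 probe sets of embryo and desiccation genes had array medians of -7.78 to -6.08 in C306, Sonalika and WH291 at 7 DAA and of 0.49 to 0.82 in the 4 varieties at 28 DAA. In the arrays labelled Lok1 7 DAA this list lay higher, at -4.87 to -2.88. BioB, a labelled bacterial control that is added at hybridization, averaged 1.18 in C306 at 28 DAA, against -3.10 in Lok1, -3.07 in Sonalika and -3.16 in WH291, while in the other groups it averaged between -0.27 and 0.58. BioB thus moves with the C306 comparisons at 28 DAA. It also moves with the stage comparisons that reach 28 DAA in Lok1, Sonalika and WH291, where it averaged 0.01, 0.38 and 0.36 at 14 DAA. The part of BioB in any of these comparisons was not tested.

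GATA17 was high in C306 at every stage and low in both poor varieties at every stage. In C306 it read 3.75, 3.54 and 3.43 at 7 DAA, 2.93, 3.72 and 4.37 at 14 DAA, and 5.41, 5.50 and 5.60 at 28 DAA. Those labelled Lok1 read 4.11, 3.38 and 3.65 at 7 DAA, -1.18, -1.21 and -1.40 at 14 DAA, and -0.45, -1.53 and -0.24 at 28 DAA. Lok1 therefore sat with C306 at 7 DAA and apart from it, with no overlap, at the later stages. Sonalika read 0.43, 0.09 and -0.09 at 7 DAA, -1.62, -1.49 and -1.26 at 14 DAA, and 0.78, -0.65 and -1.16 at 28 DAA. WH291 read 0.22, -0.02 and 0.20 at 7 DAA, -1.10, -0.91 and -0.80 at 14 DAA, and 0.02, -0.51 and -0.22 at 28 DAA. Over all stages the poor varieties ranged from -1.62 to 0.78, and the later Lok1 arrays lay inside that range.

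The 12 group means of GATA17 fell into a high block of 4 and a low block of 8. C306 at 28 DAA stood alone at the top with 5.50 ± 0.10 (SD, n = 3), 1.79 above the next mean and without overlap. Lok1 at 7 DAA (3.72 ± 0.37), C306 at 14 DAA (3.68 ± 0.72) and C306 at 7 DAA (3.57 ± 0.16) followed, and their arrays overlapped. A gap of 3.43 separated them from Sonalika at 7 DAA (0.14 ± 0.26), and below it neighbouring groups overlapped except WH291 and Lok1 at 14 DAA (-0.94 ± 0.15 and -1.26 ± 0.12).

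HSFA9 had 2 states with nothing between them. C306 was low at all stages, with -2.55, -2.37 and -2.63 at 7 DAA, -2.32, -2.48 and -1.91 at 14 DAA, and -2.26, -1.88 and -2.33 at 28 DAA. Lok1 overlapped C306 at 14 DAA (-2.64, -2.54 and -2.30) and at 28 DAA (-2.57, -2.06 and -2.31), but the arrays labelled Lok1 7 DAA read 2.69, 2.58 and 1.88. Sonalika was high throughout, with 2.85, 2.62 and 2.68 at 7 DAA, 2.76, 2.35 and 2.52 at 14 DAA, and 2.20, 2.27 and 2.23 at 28 DAA. WH291 was high at 7 DAA (3.01, 3.19 and 2.74) and at 28 DAA (2.74, 2.50 and 2.53), while the arrays labelled WH291 14 DAA read -2.29, -2.63 and -2.27. Between the lowest mean of the high state (2.23, Sonalika at 28 DAA) and the highest of the low state (-2.16, C306 at 28 DAA) lay 4.39 log2 units, against a pooled SD within groups of 0.23. Within each state every neighbouring pair of groups overlapped.

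CHD4 was low in both good varieties at every stage. In the poor ones it was high, except in the arrays labelled WH291 14 DAA and the first array of WH291 28 DAA. The arrays of C306 and Lok1 ranged from -0.57 to 0.38 over all stages, and their group means lay between -0.38 and 0.24. Sonalika read 6.11, 6.26 and 6.0 at 7 DAA, 5.56, 5.17 and 4.88 at 14 DAA, and 4.68, 4.51 and 4.98 at 28 DAA. WH291 read 6.03, 5.41 and 5.41 at 7 DAA, and the arrays labelled WH291 14 DAA read -0.16, -0.20 and -0.29, inside the range of the good varieties. At 28 DAA the WH291 replicates split, with 0.02 in the first array and 4.15 and 4.22 in the others. Probe sets were counted at which an array lay more than 3 log2 units from the mean of its 2 replicates, with those within 1 of each other. The first WH291 28 DAA array had 8 such probe sets, a number exceeded by 16 of the 36 arrays, and at HSFA9 it was as high as its group. Peroxisomal acyl-coenzyme A oxidase 1 (Ta.4957.1.S1_at), an enzyme of fatty acid breakdown, was among the 8, with -0.31 in the first array and 3.63 and 3.60 in the others.

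**Figure D1:**
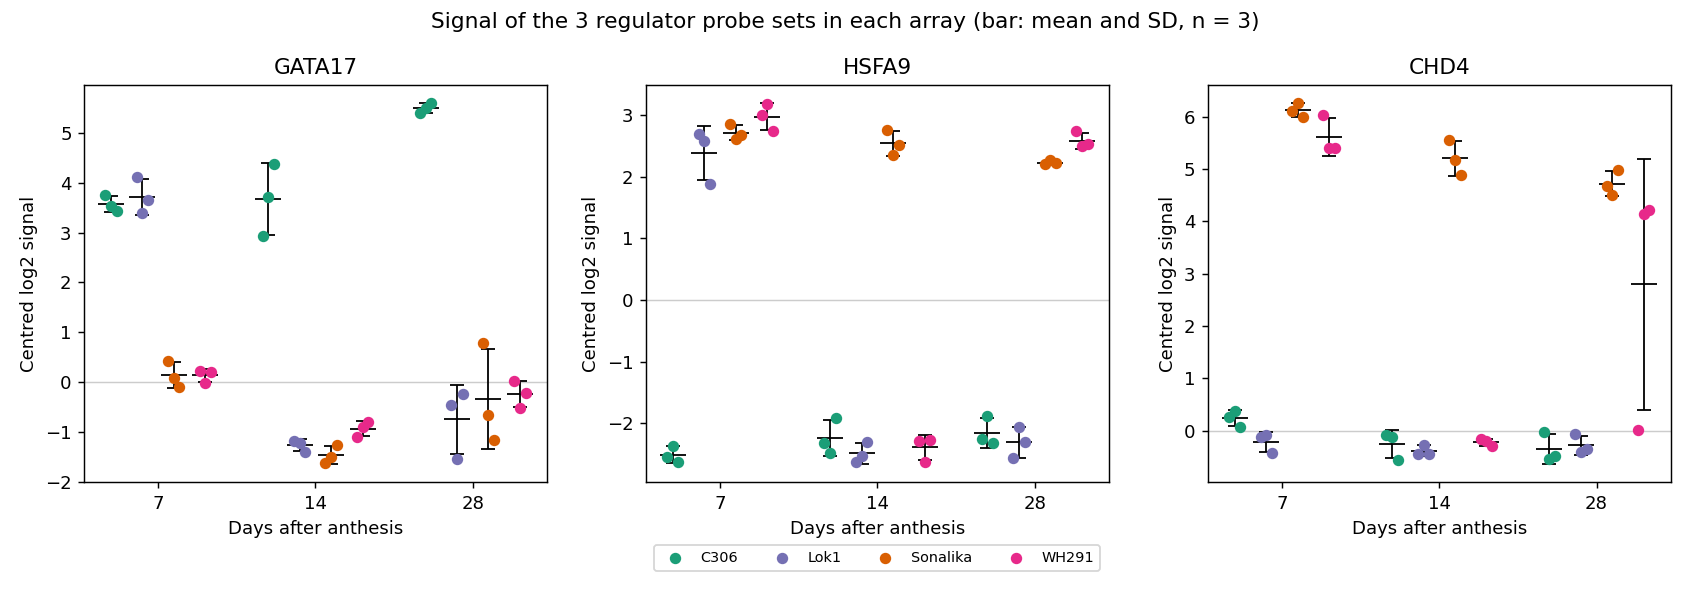
Centred log2 signal of GATA17, HSFA9 and CHD4 (y axis, 1 panel each) in the 36 arrays by days after anthesis (x axis), coloured by variety, with the mean and SD of each group of 3 as a bar. GATA17 is high in C306 and in the arrays labelled Lok1 7 DAA, HSFA9 lies near 2.5 or near -2.3 with nothing between, and CHD4 is high in Sonalika and WH291 except at WH291 14 DAA and in the first array of WH291 28 DAA.

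As a description without a test, the good varieties minus the poor ones differed in GATA17 by 3.51, 2.40 and 2.67 at the successive stages. The class means hid the split between the good varieties: at 28 DAA the mean of the 6 good arrays was 2.38, against -0.29 for the 6 poor ones, and no single good array lay between -0.24 and 5.41. HSFA9 differed by -2.91, -2.44 and -4.65 at 7, 14 and 28 DAA, and CHD4 by -5.86, -2.81 and -4.07. Without the 6 arrays labelled Lok1 7 DAA and WH291 14 DAA, the HSFA9 difference was -5.36 at 7 DAA and -4.91 at 14 DAA, and the CHD4 difference was -5.52 at 14 DAA. The smaller class differences of HSFA9 at 7 and 14 DAA, and of CHD4 at 14 DAA, thus rested on those arrays.

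Within the good class, 1 of the 3 passed the test at each stage. Over all probe sets, 9.39%, 6.48% and 12.5% passed at 7, 14 and 28 DAA. GATA17 was higher in C306 than in Lok1 by 4.94 ± 0.35 (SE) at 14 DAA (limma, adjusted p = 2.5e-11) and by 6.24 ± 0.35 at 28 DAA (adjusted p = 1.3e-13). It differed by -0.14 ± 0.35 at 7 DAA (adjusted p = 0.88). The difference at 14 DAA was found where BioB ranged from 0.17 to 0.92 in C306 and from -0.18 to 0.25 in Lok1. HSFA9 differed by -4.90 ± 0.18 at 7 DAA (adjusted p = 8.6e-18), a value that rests on the arrays labelled Lok1 7 DAA, and by 0.26 ± 0.18 and 0.16 ± 0.18 at 14 and 28 DAA (adjusted p = 0.52 and 0.67). CHD4 differed by 0.45, 0.12 and -0.07 (SE 0.56 each), with adjusted p = 0.73, 0.95 and 0.96.

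Within the poor class, 0, 2 and 1 of the 3 passed at the successive stages, beside 11.4%, 8.38% and 6.14% of all probe sets. At 7 DAA, 0 of the 3 also passed an unadjusted p of 0.05 in limma, and CHD4 differed by 0.51 ± 0.56 (adjusted p = 0.70). It passed after cyclic loess (3.04), which was run on values already centred per probe set and so could not follow signal level. That setting moved the CHD4 mean of the good arrays at 28 DAA from -0.32 to 4.62, so 3.04 is not a like measure. Sonalika exceeded WH291 at 14 DAA by 4.94 ± 0.18 in HSFA9 (limma, adjusted p = 1.3e-17) and by 5.42 ± 0.56 in CHD4 (adjusted p = 8.1e-08), and both rest on the arrays labelled WH291 14 DAA. At 28 DAA, CHD4 was 1.93 ± 0.56 higher in Sonalika (adjusted p = 0.035). That call was lost without the first WH291 28 DAA array, where the difference was 0.54 ± 0.20 (adjusted p = 0.14), and also without the first or the third Sonalika 28 DAA array (adjusted p = 0.11 and 0.13). GATA17 differed by 0.01, -0.52 and -0.10 (SE 0.35 each) at 7, 14 and 28 DAA, with adjusted p of 0.42 or more. HSFA9 differed by -0.26 and -0.36 (SE 0.18) at 7 and 28 DAA, with adjusted p = 0.47 and 0.31.

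**Figure D2:**
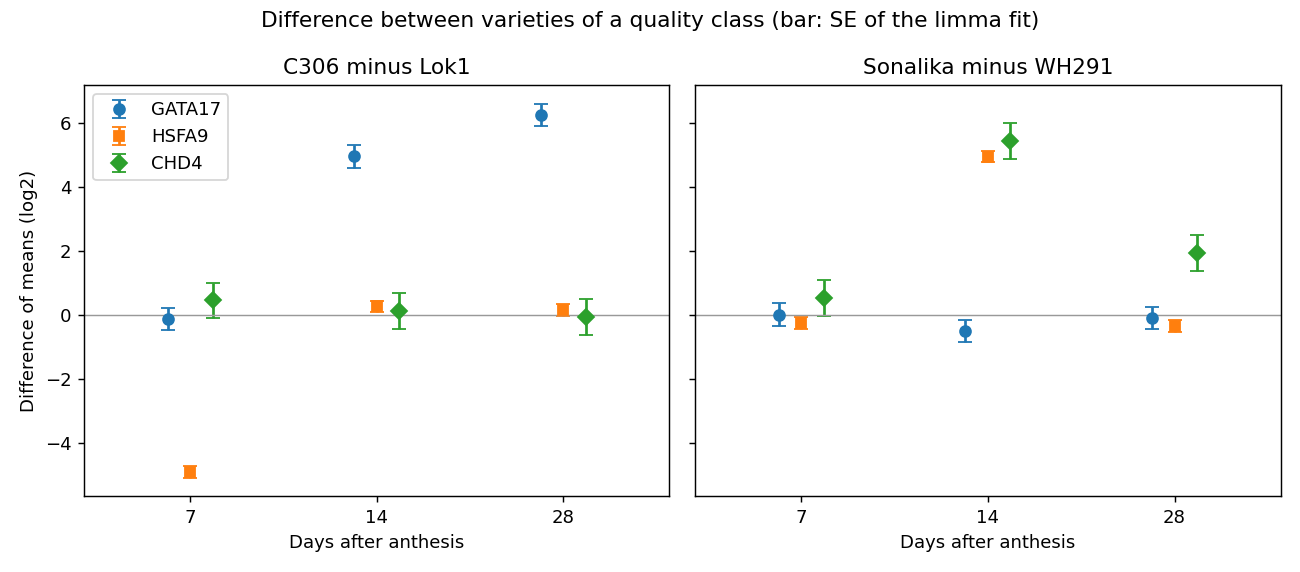
Difference of group means on the log2 scale (y axis) between C306 and Lok1 (left) and between Sonalika and WH291 (right) at 7, 14 and 28 days after anthesis (x axis), with the SE of the limma fit. Large differences are GATA17 in the good class at 14 and 28 DAA (4.94 and 6.24), HSFA9 in the good class at 7 DAA (-4.90), HSFA9 and CHD4 in the poor class at 14 DAA (4.94 and 5.42), and CHD4 at 28 DAA (1.93).

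The change of these differences with stage was then tested. It passed for 2 of the 3 probe sets in each class, where 11.9% of all probe sets passed for C306 minus Lok1 and 12.7% for Sonalika minus WH291. In the good class it passed for GATA17 (F test in limma, adjusted p = 3.2e-10) and HSFA9 (adjusted p = 5.9e-15), and in the poor class for HSFA9 (adjusted p = 5.7e-15) and CHD4 (adjusted p = 0.00030). Each of these tests used the arrays labelled Lok1 7 DAA or WH291 14 DAA. Between the stages without those arrays, none of the 3 passed in either class in limma (0 of 3 each, with 1 of 3 and 0 of 3 at an unadjusted p of 0.05), where 5.81% of all probe sets passed in the good class and 7.74% in the poor class. C306 minus Lok1 changed between 14 and 28 DAA by 1.30 ± 0.49 in GATA17 (adjusted p = 0.12, unadjusted p = 0.013), by -0.10 ± 0.26 in HSFA9 (adjusted p = 0.89) and by -0.20 ± 0.79 in CHD4 (adjusted p = 0.93). Sonalika minus WH291 changed between 7 and 28 DAA by -0.11 ± 0.49 in GATA17 (adjusted p = 0.94), by -0.10 ± 0.26 in HSFA9 (adjusted p = 0.90) and by 1.42 ± 0.79 in CHD4 (adjusted p = 0.33). Without the first WH291 28 DAA array the CHD4 change was 0.03 ± 0.27 (adjusted p = 0.97).

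Stage changes were tested within each variety. Steps to 28 DAA in Lok1, Sonalika and WH291 coincide with the fall of BioB given above. In C306, where 33.5% of all probe sets changed with stage, 1 of the 3 did so. GATA17 rose in C306 by 1.83 ± 0.35 between 14 and 28 DAA (limma, adjusted p = 0.00034), a step at which 17.5% of all probe sets changed. Between 7 and 14 DAA, where 17.3% changed, GATA17 differed by 0.10 ± 0.35 in C306 (adjusted p = 0.90). In Sonalika, where 38.9% of all probe sets changed with stage, GATA17 fell by 1.60 ± 0.35 between 7 and 14 DAA (adjusted p = 0.00073) and rose by 1.11 ± 0.35 between 14 and 28 DAA (adjusted p = 0.024), steps at which 27.1% and 17.4% of all probe sets changed. The Sonalika arrays at 28 DAA spread over 1.94 log2 units, from -1.16 to 0.78. HSFA9 in Sonalika fell by 0.49 ± 0.18 between 7 and 28 DAA (adjusted p = 0.044, with 31.3% of all probe sets changed), a small part of the distance between its 2 states, while its test over the 3 stages gave adjusted p = 0.093. With a replicate block the change between 7 and 28 DAA did not pass (adjusted p = 0.052). The test over the 3 stages passed without the third array labelled Lok1 7 DAA (adjusted p = 0.043) and without the 6 doubted arrays (adjusted p = 0.0495).

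CHD4 declined with stage in Sonalika by 1.40 log2 units between 7 and 28 DAA, and the error of this value depended on 1 array of another variety, since all groups share 1 estimate of the spread. With all 36 arrays its SE was 0.56 and its adjusted p 0.056. Without the first WH291 28 DAA array the SE was 0.18 (limma, adjusted p = 5.4e-07), and the 3 Sonalika arrays at 7 DAA all lay above the 3 at 28 DAA in both cases. WH291 declined between 7 and 28 DAA by 2.82 ± 0.56 with that array (adjusted p = 0.00014) and by 1.43 ± 0.20 without it (adjusted p = 1.9e-06), where 37.0% of all probe sets changed. In C306, CHD4 differed by -0.59 between 28 and 7 DAA, where 29.8% of all probe sets changed, with adjusted p = 0.49 in all arrays and 0.014 without that array. In Lok1, where 41.1% of all probe sets changed with stage, CHD4 did not pass the test over the stages in either case (adjusted p = 0.97 and 0.74).

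The largest stage changes carried the labels Lok1 and WH291. GATA17 and HSFA9 were lower at 14 than at 7 DAA in the arrays labelled Lok1, by -4.98 ± 0.35 and -4.88 ± 0.18 (limma, adjusted p = 1.4e-11 and 1.4e-17), where 19.9% of all probe sets changed. Between 14 and 28 DAA in Lok1 they differed by 0.52 ± 0.35 and 0.18 ± 0.18 (adjusted p = 0.30 and 0.53), where 27.0% changed. In WH291, where 45.1% of all probe sets changed with stage, HSFA9 differed by -5.38 between 14 and 7 DAA and by 4.99 between 28 and 14 DAA (SE 0.18 each), and CHD4 by -5.83 and 3.01 (SE 0.56 each). All 3 probe sets passed at the first of these steps and 2 of 3 at the second, beside 28.6% and 27.0% of all probe sets. Between 7 and 28 DAA, which leaves out the arrays labelled WH291 14 DAA, HSFA9 differed by -0.39 ± 0.18 (adjusted p = 0.10). GATA17 in WH291 was lower at 14 than at 7 DAA by -1.07 ± 0.35 (adjusted p = 0.019).

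Read together in each array, the 3 probe sets gave C306, Lok1 and the poor varieties different combinations at the stages not in doubt. C306 had GATA17 high with HSFA9 and CHD4 low at all 3 stages. Lok1 at 14 and 28 DAA had all 3 low, and Sonalika at all stages had GATA17 low with HSFA9 and CHD4 high. WH291 had the combination of Sonalika at 7 DAA and in 2 of its 3 arrays at 28 DAA. The arrays labelled Lok1 7 DAA had GATA17 and HSFA9 high with CHD4 low, a combination that no other array showed. The first array of WH291 28 DAA had HSFA9 high with the other 2 low, which was likewise found in no other array. The arrays labelled WH291 14 DAA had all 3 low, as in Lok1 at 14 and 28 DAA. Whether these arrays hold other seed than their labels say was not tested.

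A split of the 12 arrays of a stage into 2 blocks more than 2 log2 units apart was uncommon on the array. Such a split was present at 1.83%, 1.18% and 1.26% of the 60130 probe sets at 7, 14 and 28 DAA, and at 93 probe sets at every stage, 31 of them among the 236 in the study's list. The sequence of splits that GATA17 followed was shared by 5 probe sets, itself included, that of HSFA9 by 3 and that of CHD4 by 2. All of these were in the study's list. That list required a large difference between the classes in these same arrays. A split thus follows in part from the choice, and its rarity is no result about the 3. The sequence of CHD4 also depends on the first array of WH291 28 DAA.

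The share of the variation that variety accounted for was larger for the 3 probe sets than for the array at large. Of the total sum of squares over 36 arrays, variety held 68.3% for GATA17, 54.0% for HSFA9 and 74.1% for CHD4, against a median of 9.87% over all probe sets past the filter and 17.5% over the study's list. Stage held 10.9%, 17.5% and 8.17%, and the interaction of variety and stage 18.4%, 27.9% and 12.8%. The medians over all probe sets were 23.3% for stage and 17.0% for the interaction. Without the 6 doubted arrays, the share of variety was 90.5% for GATA17, 91.4% for HSFA9 and 77.1% for CHD4 (median over all 11.3%), and that of the interaction 3.93%, 0.409% and 1.89% (median over all 11.7%). Since the list was chosen on a difference between varieties, a large share of variety follows in part from the choice, and no test is given.

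**Figure D3:**
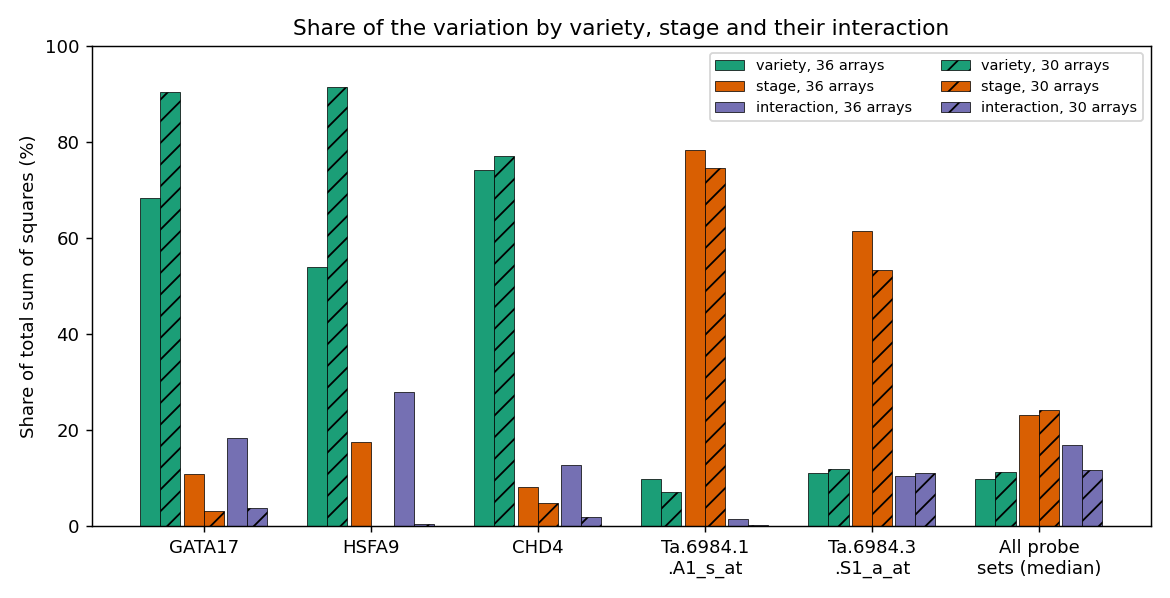
Share of the total sum of squares in percent (y axis) held by variety, stage and their interaction for the 3 probe sets, the other 2 probe sets of the CHD4 cluster and the median of all probe sets, in 36 arrays (plain bars) and in 30 arrays without those labelled Lok1 7 DAA and WH291 14 DAA (hatched bars), where the groups are unbalanced and shares need not sum with the residual to the total. Variety holds 54.0 to 74.1% for the 3 probe sets in 36 arrays, whereas stage holds 78.3% and 61.6% for the other 2 of the cluster.

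The array carries 2 further probe sets of the transcript cluster of CHD4, Ta.6984.1.A1_s_at and Ta.6984.3.S1_a_at, and no other probe set of the GATA17 or HSFA9 clusters. Neither followed the pattern of Ta.6984.1.A1_at. Ta.6984.1.A1_s_at was lower at 28 than at 7 DAA in each of the 4 varieties, with a difference of -2.05 for C306, -1.66 for Lok1 (where 33.6% of all probe sets changed), -2.22 for Sonalika and -2.10 for WH291 (SE 0.28 each, limma, adjusted p of 2.6e-05 or less). Ta.6984.3.S1_a_at differed likewise by -2.57 for C306, -2.45 for Lok1 and -2.09 for Sonalika (SE 0.39 each, adjusted p of 0.00010 or less), and by -0.67 for WH291 (adjusted p = 0.20). Between 14 and 28 DAA in Lok1, which leaves out the doubted arrays, they differed by -1.12 ± 0.28 and -1.81 ± 0.39 (adjusted p = 0.0034 and 0.00078). Of their 12 differences between varieties of a class, 1 passed the test, beside 6.14 to 12.5% of all probe sets. It was Ta.6984.1.A1_s_at, higher by 0.99 ± 0.28 in C306 than in the arrays labelled Lok1 7 DAA (adjusted p = 0.024). At an unadjusted p of 0.05, it was also higher in C306 at 14 and 28 DAA (0.66 and 0.61). Ta.6984.3.S1_a_at was then higher in C306 at 7 and 28 DAA (1.11 and 0.99), and differed by -0.83 between Sonalika and WH291 at 28 DAA. The other differences did not pass at that level. The correlation of the 2 with the CHD4 probe set over 36 arrays was 0.10 and 0.03, as a description. The suffix _s_at is given to probe sets whose probes match several transcripts, and which copies of the gene the 3 probe sets detect is not given in the sources used here.

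**Figure D4:**
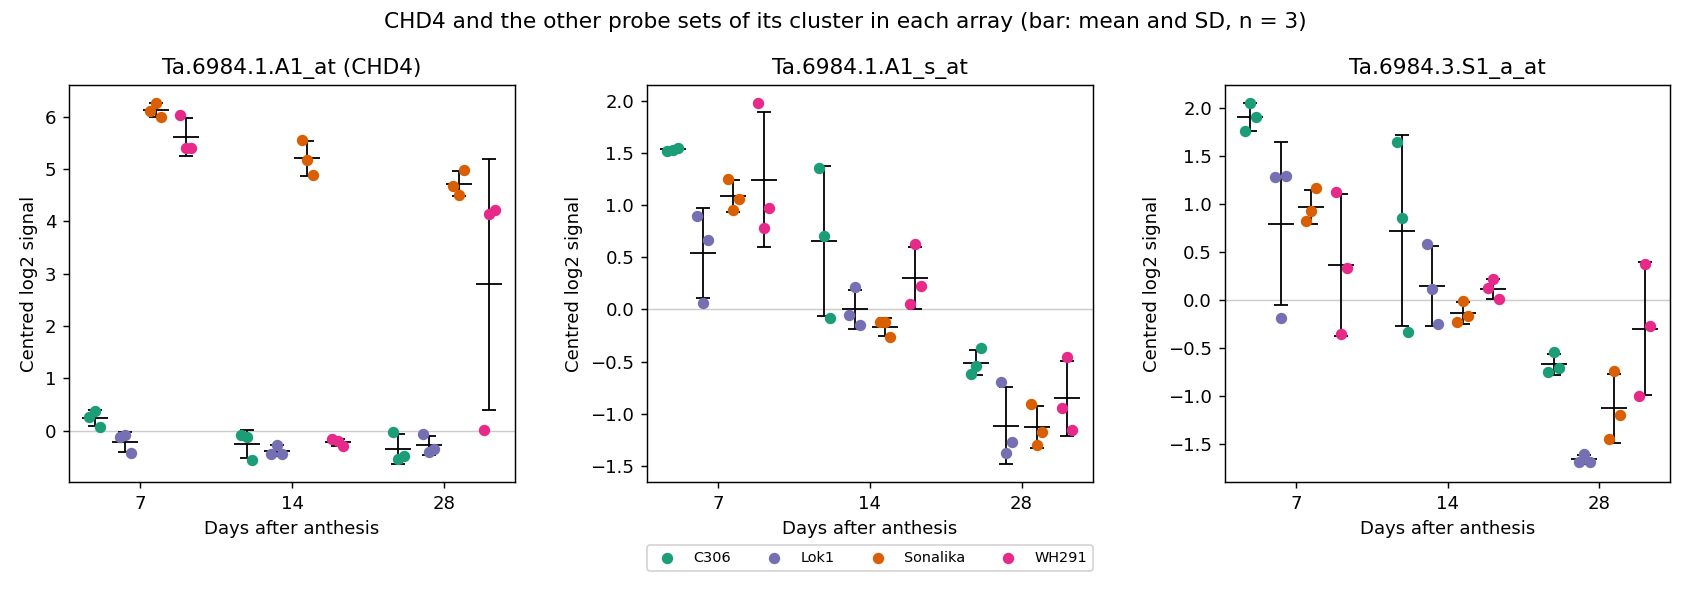
Centred log2 signal (y axis, scales differ) of the 3 probe sets of the CHD4 cluster in the 36 arrays by days after anthesis (x axis), coloured by variety, with the mean and SD of each group of 3. The CHD4 probe set separates varieties, while Ta.6984.1.A1_s_at falls with stage in all 4 varieties and Ta.6984.3.S1_a_at in C306, Lok1 and Sonalika.

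The probe sets most like each of the 3 were found by Pearson correlation over 36 arrays, which share groups and so are not independent. The closest to CHD4 was peroxisomal acyl-coenzyme A oxidase 1 (r = 0.99), which read 4.20, 4.43 and 3.87 in Sonalika at 7 DAA, -0.43, -0.29 and -0.36 in the arrays labelled WH291 14 DAA, and between -0.58 and 0.09 in the good varieties. It was split at WH291 28 DAA in the same array as CHD4. HSFA9 was closest to a hypothetical protein (Ta.5243.2.S1_a_at, r = 0.96), and the named probe sets most like it were granule-bound starch synthase I (Ta.24114.7.A1_at, r = 0.93), the enzyme of amylose synthesis, a chloroplastic ftsH-like protease (Ta.27445.1.S1_at, r = 0.86) and the same acyl-CoA oxidase (r = 0.79). Granule-bound starch synthase I read 6.85, 7.26 and 6.78 in the arrays labelled Lok1 7 DAA and -1.01, -1.45 and -1.83 in those labelled WH291 14 DAA, the same states as HSFA9. GATA17 was closest to a hypothetical protein (Ta.19222.1.S1_at, r = 0.94) and to a CCR3-like serine/threonine kinase (Ta.23352.1.S1_at, r = 0.93), which ranged from 3.47 to 5.41 in C306 and read 2.00, 3.53 and 2.33 in the arrays labelled Lok1 7 DAA. After the kinase, the named probe sets most like GATA17 were 2'-deoxymugineic-acid 2'-dioxygenase (r = 0.68), of iron-chelator synthesis, and a Bowman-Birk type trypsin inhibitor (r = 0.63). Over 30 arrays these ranked only 222 and 713 among all probe sets. Few probe sets had a name, 200 by gene symbol or synonym and 159 by the study's list. All the named ones given here were in that list. Among the 3 themselves, HSFA9 and CHD4 had r = 0.80 over 36 arrays and 0.92 over 30, GATA17 and HSFA9 -0.27 and -0.51, and GATA17 and CHD4 -0.44 and -0.48.

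HSFA9 was set beside the small heat shock protein hsp16.9A (Ta.24332.1.S1_at), the only heat shock probe set named in the annotation used here. It did not pass the filter, since each class at each stage had an array below the cut, and is described without a test. The filter can thus drop probe sets that differ between varieties of both classes. In C306 HSFA9 and hsp16.9A were both low, with hsp16.9A between -3.48 and -2.02, and in Sonalika both were high, with hsp16.9A between 3.55 and 7.32. In Lok1 at 14 and 28 DAA, where HSFA9 was low, hsp16.9A read 6.24 to 7.60, and in WH291 at 7 and 28 DAA, where HSFA9 was high, it read -3.01 to -1.30. The arrays labelled Lok1 7 DAA read -2.90, -2.18 and 8.35, and those labelled WH291 14 DAA -2.33, 1.30 and 2.44. By the count used for WH291 28 DAA, the third of the arrays labelled Lok1 7 DAA stood apart from its replicates at 255 probe sets, the most of the 36 arrays.

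The other regulators in the study's list, 9 probe sets for transcription factors and RNA polymerase parts, are given for the same comparisons. Of the 9, 8 changed with stage in each good variety (with the doubted arrays in Lok1), and 4 did so in Sonalika and 3 in WH291, beside 33.5% (C306), 41.1% (Lok1), 38.9% (Sonalika) and 45.1% (WH291) of all probe sets. The counts in the poor varieties were thus near or below the share over the array. The study's list was chosen in these same arrays by tests that included stage. A high count of stage changes therefore follows in part from the choice. Between varieties of a class, 9.39%, 6.48% and 12.5% of all probe sets passed for C306 minus Lok1 at 7, 14 and 28 DAA in either direction, and 11.4%, 8.38% and 6.14% for Sonalika minus WH291, and the counts of this and the following lists stand beside these shares. Between C306 and Lok1, 1 was lower at 7 DAA (with the doubted arrays), 2 were higher at 14 DAA and 5 were lower at 28 DAA, with list medians of -0.08, 1.14 and -2.80 against -0.02, 0.02 and -0.03 over all probe sets. The cold-response factor TaCBF11 (TaAffx.109268.1.S1_at) was 2.58 ± 0.79 higher in C306 at 14 DAA (limma, adjusted p = 0.048) and differed by -5.86 ± 0.79 at 28 DAA (adjusted p = 5.2e-06). Its other probe set (TaAffx.109268.1.S1_x_at) passed only at 28 DAA (-3.80 ± 0.42). The zf-MYND probe set TaAffx.86295.1.S1_at differed by 2.01 ± 0.58 at 14 DAA and -4.03 ± 0.58 at 28 DAA. The C306 arrays at 14 DAA disagreed in this list, with array medians from 0.01 to 2.86. A zf-MYND domain protein (TaAffx.111195.1.S1_at) differed between C306 and Lok1 by -4.04 ± 0.66 at 28 DAA (adjusted p = 7.3e-05). Between Sonalika and WH291, 0 passed at 7 and 14 DAA (2 and 0 at an unadjusted p of 0.05) and 3 were higher in Sonalika at 28 DAA. These were the NAC factors NAM (Ta.10826.2.A1_x_at, 4.64 ± 0.91, adjusted p = 0.0016) and CUP-SHAPED COTYLEDON 2 (Ta.10826.1.A1_a_at, 4.41 ± 0.98, adjusted p = 0.0051, and Ta.25258.1.S1_at, 3.02 ± 0.86, adjusted p = 0.033), a family that acts in organ boundaries and senescence. The first 2 of these belong to 1 transcript cluster and may share signal.

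The histone list, 18 probe sets chiefly of H2A and H2B, gives the chromatin side beside CHD4. Most of the 18 belong to the transcript clusters of H2A-9 and wcH2B-8 and may share signal. All 18 changed with stage in Lok1, Sonalika and WH291, and 16 did so in C306, beside 33.5 to 45.1% of all probe sets. Between C306 and Lok1, 9 were higher in C306 at 7 DAA, 0 passed at 14 DAA (also 0 at an unadjusted p of 0.05) and 1 was lower at 28 DAA. Between Sonalika and WH291, 5 were lower in Sonalika at 7 DAA, 13 at 14 DAA and 0 at 28 DAA (1 of the 18 at an unadjusted p of 0.05). The counts at 7 DAA in the good class and at 14 DAA in the poor class rest on the doubted arrays. The largest of these was H2A-9 (Ta.27657.7.S1_x_at), which differed by -2.35 ± 0.36 between Sonalika and the arrays labelled WH291 14 DAA (limma, adjusted p = 6.6e-05).

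Lists of the seed's tissues are given for the same comparisons. Many of their probe sets belong to shared transcript clusters and may share signal. Of the 16 embryo and desiccation probe sets, 2, 8 and 0 were lower in C306 than in Lok1 at 7, 14 and 28 DAA, and 1, 6 and 2 were higher in Sonalika than in WH291. The 2 of 16 at 7 DAA in the good class lie near the 9.39% of all probe sets. In that comparison 7 of the 16 had an unadjusted p under 0.05 in limma, and the list median was -1.77, against -0.02 over all probe sets. At 14 DAA the C306 arrays disagreed, with medians of this list from -3.86 to 0.07. By the count used for WH291 28 DAA, the first C306 array at 14 DAA stood apart from its replicates at 239 probe sets. At 28 DAA in the good class, 2 of the 16 had an unadjusted p under 0.05. The largest was the desiccation gene EM (Ta.2798.1.S1_s_at), 6.71 ± 1.38 higher in Sonalika than in the arrays labelled WH291 14 DAA (limma, adjusted p = 0.0021). Of 56 storage protein probe sets of the endosperm, 1 was lower in C306 at 7 DAA, 1 was lower at 14 DAA and 5 were higher at 28 DAA, and in Sonalika 6 were higher at 7 DAA, 2 were lower at 14 DAA and 22 were higher at 28 DAA. In the good class these counts are below the shares over all probe sets at each stage (9.39%, 6.48% and 12.5%). At an unadjusted p of 0.05 in limma, 6, 1 and 20 of the 56 passed there at 7, 14 and 28 DAA. The median difference of the list at 28 DAA was 2.15, against -0.03 over all probe sets, so a low adjusted count is not a lack of difference. The counts of both lists at 7 DAA in the good class and at 14 DAA in the poor class rest on the doubted arrays. The largest was a gamma-gliadin (TaAffx.128418.2.S1_x_at), 9.94 ± 1.29 higher in Sonalika than in WH291 at 28 DAA (adjusted p = 5.8e-06). Of 3 green pericarp probe sets, 0 passed in limma at any stage in either class, and also 0 at an unadjusted p of 0.05. The part of differences in tissue make-up in the values of the 3 regulators was not tested.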

How the data were processed

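RNA of 36 seed samples was measured on Affymetrix wheat arrays. The deposited values are log2 signals that the authors summarised with RMA in GeneSpring and centred on each probe set's median over the arrays. Array medians lay between -0.03 and 0.03. The number of arrays (3 per group) limits the precision. Samples were grouped by the variety and stage in their labels, and 0 columns of other samples were left out.

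Tests were made with limma 3.58.1 in R 4.3.3, in a model of 12 groups without a replicate block and with Benjamini-Hochberg adjustment at 0.05. Probe sets were kept when all arrays of at least 1 of 6 groups of quality and stage lay at or above the 20th percentile of their own array, which left 60130. Since values were centred, this filter does not remove low signals. It can drop probe sets that are low in 1 variety of each class. The 3 members and all lists were chosen with earlier results of these data known. On simulated data with 200 changed probe sets the C306 minus Lok1 script was checked. Named probe sets were the 3, others of their clusters, the 5 probe sets and 3 named ones most like each by Pearson r, and list members past a within-class test. Of 61290 probe sets, 1273 had 1 gene symbol, 0 had several and 60017 had none in the platform annotation, and 1272 matched RefSeq. A list of transcription regulators by symbol matched 1 probe set, an alpha-amylase inhibitor and no regulator, and was not used. The storage protein list holds every gliadin, glutenin and avenin of the study's list, and thionins were kept out of the histone list. Python 3.11.15 was used for descriptions. Alternatives were other samples, normalizations, filters, error models and a replicate block.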

Additional observations from a re-analysis of the deposited data

Results flagged for a closer look

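The difference between varieties of a class changed with stage, by an F test of that change, in 4 cases: HSFA9 in C306 minus Lok1 (limma, adjusted p = 5.87e-15), GATA17 in C306 minus Lok1 (adjusted p = 3.24e-10), HSFA9 in Sonalika minus WH291 (adjusted p = 5.71e-15) and CHD4 in Sonalika minus WH291 (adjusted p = 0.000305). Each uses the arrays labelled Lok1 7 DAA or WH291 14 DAA. Without these arrays, only 2 stages are left per class, and the change between them was 1.30 for GATA17 (adjusted p = 0.13) and -0.10 for HSFA9 (adjusted p = 0.86) in the good class, and -0.10 for HSFA9 (adjusted p = 0.87) and 1.42 for CHD4 (adjusted p = 0.35) in the poor class.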

How the results depend on the processing

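Of the differences between varieties of a class, only those of CHD4 changed their call. At 28 DAA, Sonalika minus WH291 was no longer past the threshold in CHD4 with an ANOVA without moderation (1.93), with array weights (1.35), after cyclic loess (1.77), in a fit of the compared arrays alone (1.93), and without the 6 doubted arrays and the first WH291 28 DAA array together (0.54), an alternative chosen after seeing the data. Leaving out 1 array at a time gave 0.54 to 2.64, and the call was lost without Sonalika 28 DAA replicate 1 (1.95) or 3 (1.80) and WH291 28 DAA replicate 1. After cyclic loess, CHD4 at 7 DAA differed by 3.04 and passed, and the change of its difference with stage no longer did (adjusted p = 0.092). Cyclic loess was run on values already centred per probe set, where it cannot follow signal level. Its values here and below are therefore a weak check of the normalization. The cause of these shifts was not tested. The change of GATA17 with stage in WH291 lost its call without any of 5 arrays of WH291 at 7 or 14 DAA (adjusted p up to 0.12), with an ANOVA without moderation (0.051) and after cyclic loess (0.17), and that in Sonalika lost it after cyclic loess (0.065).

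Good minus Poor without the 6 doubted arrays was -5.36 (7 DAA) and -4.91 (14 DAA) in HSFA9 and -5.52 in CHD4 (14 DAA), and after cyclic loess -4.52 in CHD4 at 7 DAA. Leaving out 1 array, which shifts the weight of its variety in the class mean, gave 1.77 to 2.92 for GATA17 at 14 DAA and 2.03 to 3.45 at 28 DAA, -3.46 to -2.40 for HSFA9 at 7 DAA and -2.98 to -1.90 at 14 DAA, and -4.82 to -3.83 for CHD4 at 28 DAA. Shares without the doubted arrays were 90.5% (variety), 3.24% (stage) and 3.93% (interaction) for GATA17, 91.4%, 0.046% and 0.409% for HSFA9, and 1.89% (interaction) for CHD4. The highest r was then 0.95 for GATA17 and 0.98 for HSFA9, each with another probe set.

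Replicate numbers did not pair the arrays: same-numbered arrays of different groups had a mean correlation of deviations of -0.0018, 41 of 198 pairs were over 0.1, and 13 of 36 arrays were closest to their own number. With a replicate block, the fall of HSFA9 in Sonalika between 7 and 28 DAA lost its call (adjusted p = 0.052, against 0.044 without it). The other calls of the 3 probe sets stayed on the same side, with GATA17 at adjusted p = 5.2e-13 for C306 minus Lok1 at 28 DAA and CHD4 at 0.043 for Sonalika minus WH291 at 28 DAA, and C306 minus Lok1 at 28 DAA had 7417 calls with the block and 7491 without it.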
